A study of Mus musculus with 7 samples.

Results

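Bone morphogenetic protein (BMP) signalling was followed through 10 genes of the embryonic mouse left ventricle: the ligands Bmp2, Bmp4, Bmp5, Bmp7 and Bmp10, the receptors Bmpr1a and Bmpr2, and the target genes Id1, Id2 and Id3. They were chosen by name for their role in the pathway, with earlier results of these data known. All 10 were present among the 23337 gene symbols of the count table. Poly(A) RNA was sequenced in 7 libraries from microdissected left ventricles of embryos at E12.5, after tamoxifen had been given to the mothers at E11.5. The 2 libraries labelled mutant came from Tbx5flox/flox embryos and the 5 controls from Tbx5+/+ embryos. Both groups carried the allele Gt(ROSA)26Sortm1(cre/ERT2)Tyj and both had received tamoxifen. The Cre-ERT2 recombinase was expressed from Rosa26, a locus active in most cell types, and the deletion was therefore not directed at 1 cell type. No litter, sex, pooling or batch is given in the labels, and the p-values cover only the spread between these 7 libraries, which may be partly technical.

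BMP ligands are secreted dimers that bring together type I receptors such as BMPR1A and type II receptors such as BMPR2. The activated type I receptor phosphorylates SMAD1, SMAD5 and SMAD9, which enter the nucleus with SMAD4 and switch on genes such as Id1, Id2 and Id3. ID proteins lack a basic region and hold back basic helix-loop-helix factors by pairing with their E-protein partners. In the embryonic heart, BMP2 from the myocardium of the atrioventricular canal is known for patterning that region and for inducing the endocardial cushions, and BMP10 from trabecular myocardium is known for sustaining the growth of the ventricular wall.

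Library totals were 20268208 and 22680280 counts in the libraries labelled mutant and 20385656 to 24440806 in the controls. Tbx5 itself was at 93.8 and 114 CPM (counts scaled to a common library total) in the libraries labelled mutant, against 64.2 to 98.3 CPM in the controls. Its log2 fold change was 0.43 (SE 0.15; adjusted p 0.181, edgeR quasi-likelihood test). The count is for the whole gene and can include reads from exons that the deletion leaves in place, so it does not check the deletion. Every direction given here is therefore that of the libraries labelled mutant. All 8 cardiomyocyte markers examined, Tnnt2, Myh7 and Ttn among them, were detected in each library. Xist was over 10 CPM in both libraries labelled mutant and in control replicates 2, 4 and 5, but not in control replicates 1 and 3.

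Upstream sequence from RefSeq (GRCm38.p6) was matched for 7 of the 10 genes, Bmp4, Bmp5, Bmp10, Bmpr1a, Bmpr2, Id2 and Id3. The 250 bases before the start site were searched on both strands for GGCGCC, a GC-rich SMAD1 and SMAD5 site that is its own reverse complement, and for AGGTGT, the core of a T-box site. GGCGCC occurred in Bmpr1a, Bmpr2 and Id2, that is 3 of 7 windows, and in 9.59% of the 32851 RefSeq windows of the same length. These 3 windows were 78.8%, 64.0% and 62.8% G and C, while those of Bmp4, Bmp5, Bmp10 and Id3, which held no match, were 63.2%, 42.8%, 52.0% and 62.8%. AGGTGT occurred in 0 of 7 windows and in 11.8% of all. The shorter SMAD box GTCT, on either strand, occurred in 5 of 7 windows, those of Bmp4, Bmp5, Bmp10, Id2 and Id3, and in 82.9% of all. CACCTG, an E-box whose reverse complement shares the letters AGGTG with the T-box core, occurred in Bmp4 alone, 1 of 7, and in 17.2% of all. Sequences are shown for a target gene and a receptor that hold GGCGCC, and for a pair of ligands that hold GTCT but not GGCGCC. Each is 5′ to 3′ on the gene's own strand, with GGCGCC in capitals. For Id2 and Bmpr1a only the stretch outside annotated GENCODE exons is shown, chr12:25096254-25096342 (minus strand) and chr14:34502688-34502796 (minus strand). For the ligands the full window is shown, chr14:46390670-46390919 (minus strand) and chr6:87428744-87428993 (plus strand). The Id2 stretch lies in an intron of a longer annotated Id2 transcript. The Bmpr1a stretch also lies inside its annotated gene, as do the windows of Bmpr2 and Id3, which begin in an annotated exon. For these genes the window precedes a RefSeq start site but not the first annotated base of the gene.
Id2: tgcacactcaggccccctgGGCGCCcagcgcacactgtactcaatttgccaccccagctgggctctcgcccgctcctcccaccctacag
Bmpr1a: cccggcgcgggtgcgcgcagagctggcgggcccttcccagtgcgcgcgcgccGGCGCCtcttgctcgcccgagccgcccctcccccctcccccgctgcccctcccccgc
Bmp4: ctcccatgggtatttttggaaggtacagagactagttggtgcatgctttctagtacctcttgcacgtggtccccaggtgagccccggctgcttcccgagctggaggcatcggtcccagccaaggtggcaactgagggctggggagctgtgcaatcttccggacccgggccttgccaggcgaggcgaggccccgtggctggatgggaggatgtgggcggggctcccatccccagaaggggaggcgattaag
Bmp10: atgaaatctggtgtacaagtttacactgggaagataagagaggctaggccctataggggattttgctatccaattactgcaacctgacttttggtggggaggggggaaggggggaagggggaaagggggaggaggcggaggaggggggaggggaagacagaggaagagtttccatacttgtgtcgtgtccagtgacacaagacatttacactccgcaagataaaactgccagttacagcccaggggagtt
A match is a description of the letters and was not tested for binding.

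None of the 10 genes was called at a false discovery rate of 0.05 (edgeR quasi-likelihood, Benjamini-Hochberg over all 14691 genes tested), against 1.36% of all genes. The DESeq2 Wald test called 2 of the 10, Bmp2 and Id3, against 5.35% of all genes, and limma-voom called 0, against 0.81%. All 10 had been kept by the filter on low counts. Bmp2 and Id3 stood apart from the other 8 in that both libraries labelled mutant lay below every control, and no gene of the 10 lay above every control. Over all genes tested, 20.2% had groups that did not overlap, 10.4% with the libraries labelled mutant below, so 2 of 10 is near the background for both directions together. At an unadjusted p under 0.05 the same 2 genes passed, 2 of 10, against 17.6% of all genes. The 10 genes had 5 positive and 5 negative log2 fold changes, with a median of -0.07, against -0.0080 over all genes tested.

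**Figure D1:**
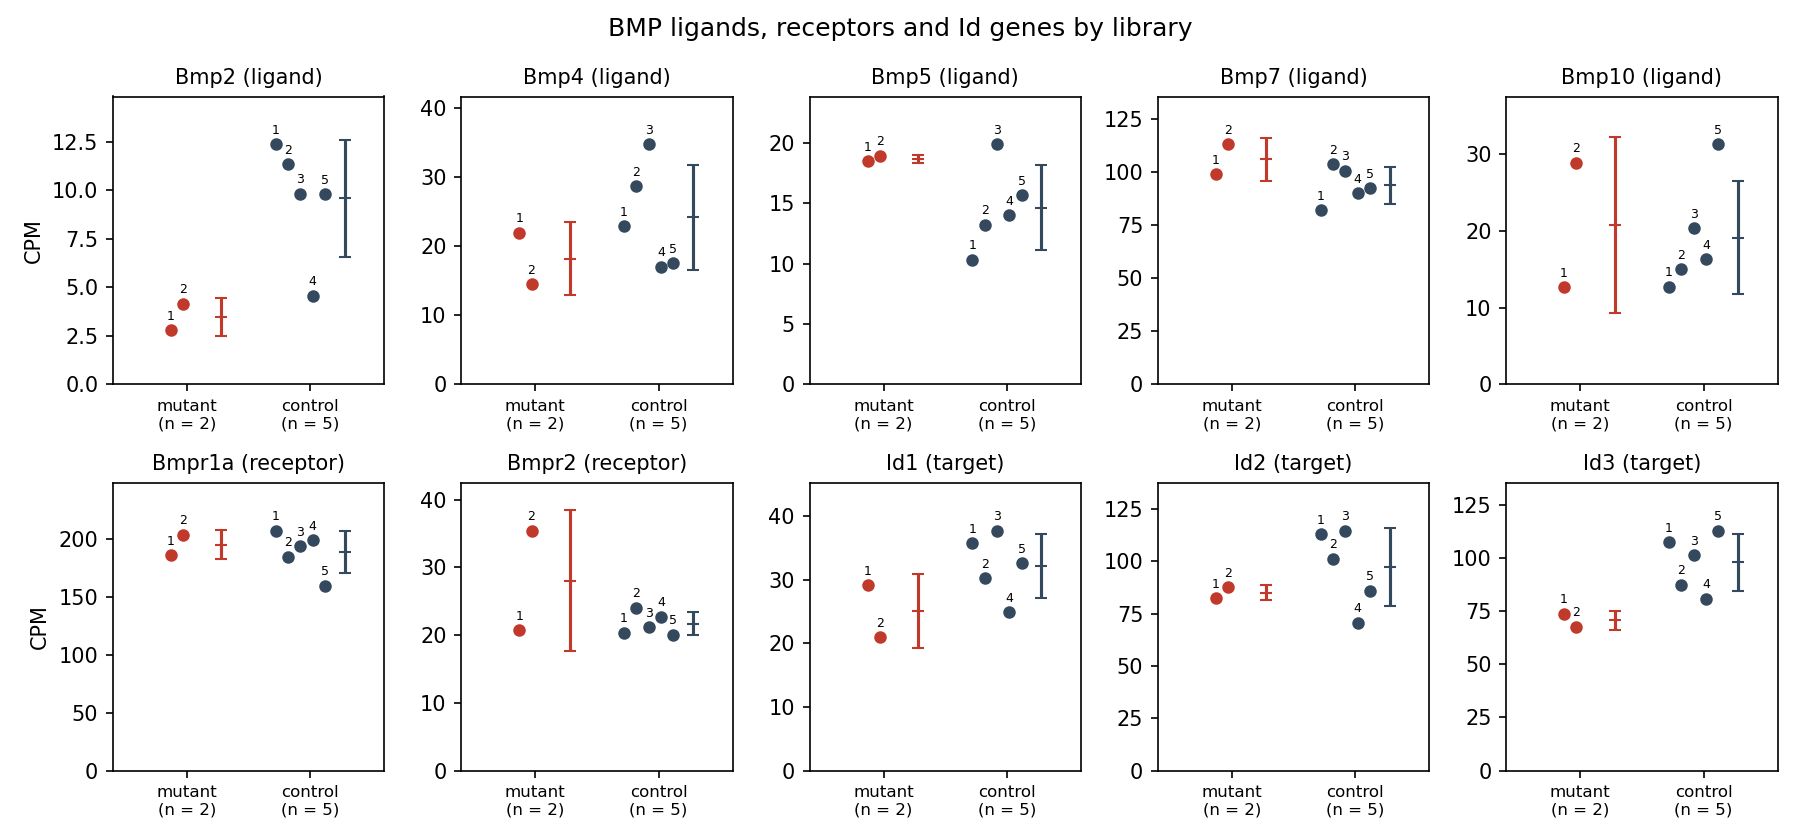
CPM of each of the 10 genes in every library, with the libraries labelled mutant (red, n = 2) left of the controls (dark blue, n = 5). Points carry the replicate number and bars beside them give the mean ± SD. Only in the Bmp2 and Id3 panels do both red points lie below all 5 control points.

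Bmp2 (chromosome 2, 133552159 to 133562885, mm10) was the gene with the widest difference. It was at 2.77 and 4.16 CPM in mutant replicates 1 and 2, from 56 and 95 counts, against 12.4, 11.3, 9.81, 4.55 and 9.80 CPM in control replicates 1 to 5, from 287, 239, 216, 92 and 241 counts. Both libraries labelled mutant were below all controls, and control replicate 4 lay close above them, well below the other 4 controls.
On average Bmp2 reached 3.46 ± 0.977 CPM in mutants (SD, n = 2) and 9.57 ± 3.01 CPM in controls (SD, n = 5). This gave a log2 fold change of -1.46 (SE 0.35, 95% interval -2.24 to -0.68), with an adjusted p of 0.0757 by the edgeR quasi-likelihood test. The exact permutation test, two-sided, over all 21 ways of drawing 2 libraries from 7 gave p = 0.0476, the smallest it can give. The call turned on the tool and on control replicate 4: the adjusted p was 0.000859 by the DESeq2 Wald test and 0.00500 without control replicate 4 by the edgeR quasi-likelihood test, within a range of 0.000255 to 0.351 over 20 alternatives. In the authors' deposited table, which lists 668 genes at a false discovery rate of at most 0.05, Bmp2 had a log2 fold change of -1.47 and a false discovery rate of 0.000863.

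The other ligands overlapped between the groups. Bmp4 (chromosome 14, 46383520 to 46390669), a ligand of the outflow tract and pharyngeal region in the embryonic heart, was at 21.9 and 14.5 CPM in mutant replicates 1 and 2, against 22.8, 28.6, 34.7, 17.0 and 17.5 CPM in control replicates 1 to 5. Mutant replicate 2 was the lowest of the 7 libraries, mutant replicate 1 lay inside the control range, and replicate 4 was again the lowest control. Its log2 fold change was -0.41 (SE 0.29, 95% interval -1.05 to 0.23; adjusted p 0.503, edgeR quasi-likelihood). It ran between -0.74 without mutant replicate 1 and -0.13 without mutant replicate 2, and was -0.21 with Xist as a term.
Bmp5 (chromosome 9, 75775364 to 75900310), a ligand of the BMP5, BMP6 and BMP7 subgroup, was at 18.5 and 18.9 CPM in the libraries labelled mutant, against 10.3, 13.2, 19.9, 14.0 and 15.7 CPM in control replicates 1 to 5. Only control replicate 3 lay above them. Its log2 fold change was 0.36 (SE 0.20, 95% interval -0.08 to 0.79; adjusted p 0.382, edgeR quasi-likelihood). The library kit does not mark strand, and 46.7% of the exon bases of Bmp5 lie over exons of the antisense gene Gm26903, so reads of the pair cannot be told apart.

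Bmp7 (chromosome 2, 172868012 to 172940321) was the most abundant ligand by CPM and by CPM per kb of exon. It was at 98.8 and 113 CPM in mutant replicates 1 and 2, against 82.0, 103, 100.5, 89.9 and 92.2 CPM in control replicates 1 to 5. Mutant replicate 2 was the highest of the 7 libraries and mutant replicate 1 lay within the controls. For Bmp7 the log2 fold change was 0.18 (SE 0.10, 95% interval -0.05 to 0.41; adjusted p 0.403, edgeR quasi-likelihood). Leaving out mutant replicate 1 gave 0.27, and leaving out mutant replicate 2 gave 0.09.
Bmp10 (chromosome 6, 87428994 to 87437677), the ligand of trabecular myocardium, was at 12.6 and 28.9 CPM in mutant replicates 1 and 2, against 12.7, 14.99, 20.3, 16.3 and 31.3 CPM in control replicates 1 to 5. The libraries labelled mutant sat near opposite ends of the control range, differing by 2.29 times. For Bmp10 the log2 fold change was 0.12 (SE 0.38, 95% interval -0.73 to 0.97; adjusted p 0.903, edgeR quasi-likelihood), and its sign turned on the library left out, at -0.59 without mutant replicate 2 and at 0.59 once mutant replicate 1 was dropped instead. Mutant replicate 2 and control replicate 5, the highest libraries for Bmp10, were also the highest for the summed level of 10 endocardial and endothelial markers, at 1096 and 1158 CPM against 707 to 881 CPM in the other 5 libraries. The summed level of 6 trabecular markers matched Bmp10 less well. Control replicate 5 was again the highest, at 3165 CPM, but mutant replicate 2, at 1965 CPM, lay low in the control range of 1855 to 3165 CPM. The part of either marker list in the Bmp10 values was not tested.

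Among the ligands measured per length, Bmp7 made up 57.8% and 60.0% of the summed CPM per kb in mutant replicates 1 and 2, against 47.5% to 58.4% in the controls. Bmp2 made up 1.84% and 2.50%, against 3.34% to 8.81%, and was the ligand with the smallest share in both libraries labelled mutant and in every control except replicate 1. The summed level of the 5 ligands, 42.5 and 46.8 CPM per kb in the libraries labelled mutant, lay within the control range of 38.3 to 52.7 CPM per kb. Bmp7 and Bmp4 were the ligands with the highest mean levels per kb in both groups.

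Both receptor genes overlapped between the groups. Bmpr1a (chromosome 14, 34410734 to 34503341), which encodes a type I receptor that the mouse embryo needs for gastrulation, was at 186 and 203 CPM in the libraries labelled mutant, against 207, 184, 193, 199 and 159 CPM in control replicates 1 to 5. Both libraries labelled mutant lay inside the control range. For Bmpr1a the log2 fold change was 0.05 (SE 0.11; adjusted p 0.860, edgeR quasi-likelihood), with a 95% interval of -0.19 to 0.28.
Bmpr2 (chromosome 1, 59763400 to 59879014), which encodes a type II receptor, was at 20.7 and 35.4 CPM in mutant replicates 1 and 2, against 20.4, 24.1, 21.2, 22.7 and 20.1 CPM in control replicates 1 to 5. The controls were the tightest of any of the 10 genes, with a coefficient of variation of 7.72%, and mutant replicate 2 was far above all of them while mutant replicate 1 was within them. For Bmpr2 the log2 fold change was 0.38 (SE 0.17, 95% interval -0.0032 to 0.75; adjusted p 0.288, edgeR quasi-likelihood). It was 0.71 without mutant replicate 1, with an adjusted p of 0.0396 in which the lone library is assumed to vary like the controls, and -0.06 without mutant replicate 2, with an adjusted p of 0.955, so the value rested on 1 library; the adjusted p ran from 0.0396 to 0.955 over the 20 alternatives.

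All 3 Id genes had negative log2 fold changes, also with DESeq2 size factors and with library totals alone as the scaling. Of all 14691 genes tested, 7552 had negative log2 fold changes. With Xist as a term the log2 fold changes were -0.22 for Id1, -0.02 for Id2 and -0.41 for Id3, so that little of the Id2 difference was left. Id3 (chromosome 4, 136143497 to 136145755) was at 73.9 and 67.7 CPM in mutant replicates 1 and 2, against 108, 87.6, 101, 80.9 and 113 CPM in control replicates 1 to 5. Both libraries labelled mutant were below all controls, with control replicate 4 the nearest. On average Id3 reached 70.8 ± 4.35 CPM in mutants (SD, n = 2) and 98.1 ± 13.5 CPM in controls (SD, n = 5). Id3 thus had a log2 fold change of -0.47 (SE 0.13, 95% interval -0.76 to -0.18), with an adjusted p of 0.103 by the edgeR quasi-likelihood test, and the exact two-sided permutation test gave its smallest possible p of 0.0476. DESeq2 called Id3, at an adjusted p of 0.0275 by its Wald test, within a range of 0.0275 to 0.528 over the 20 alternatives. The authors' deposited table lists Id3 at a log2 fold change of -0.48 and a false discovery rate of 0.0176.

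Id1 (chromosome 2, 152736251 to 152737410) was at 29.2 and 20.99 CPM in mutant replicates 1 and 2, against 35.8, 30.2, 37.7, 24.9 and 32.6 CPM in control replicates 1 to 5. Mutant replicate 2 was the lowest library, and mutant replicate 1 was above control replicate 4. Id1 had a log2 fold change of -0.36 (SE 0.17, 95% interval -0.74 to 0.01; adjusted p 0.304, edgeR quasi-likelihood). Leaving out mutant replicate 1 gave -0.62 for Id1, and leaving out mutant replicate 2 gave -0.13.
Id2 (chromosome 12, 25093799 to 25097140) was at 82.4 and 87.6 CPM in the libraries labelled mutant, against 113, 101, 115, 70.7 and 86.0 CPM in control replicates 1 to 5. Control replicate 4 was the lowest of all 7 libraries. Id2 had a log2 fold change of -0.19 (SE 0.17, 95% interval -0.57 to 0.18; adjusted p 0.589, edgeR quasi-likelihood). The summed level of the 3 Id genes was 100.2 and 91.8 CPM per kb in mutant replicates 1 and 2, against 137, 117, 136, 95.6 and 126 CPM per kb in control replicates 1 to 5, so the groups overlapped through control replicate 4.

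**Figure D2:**
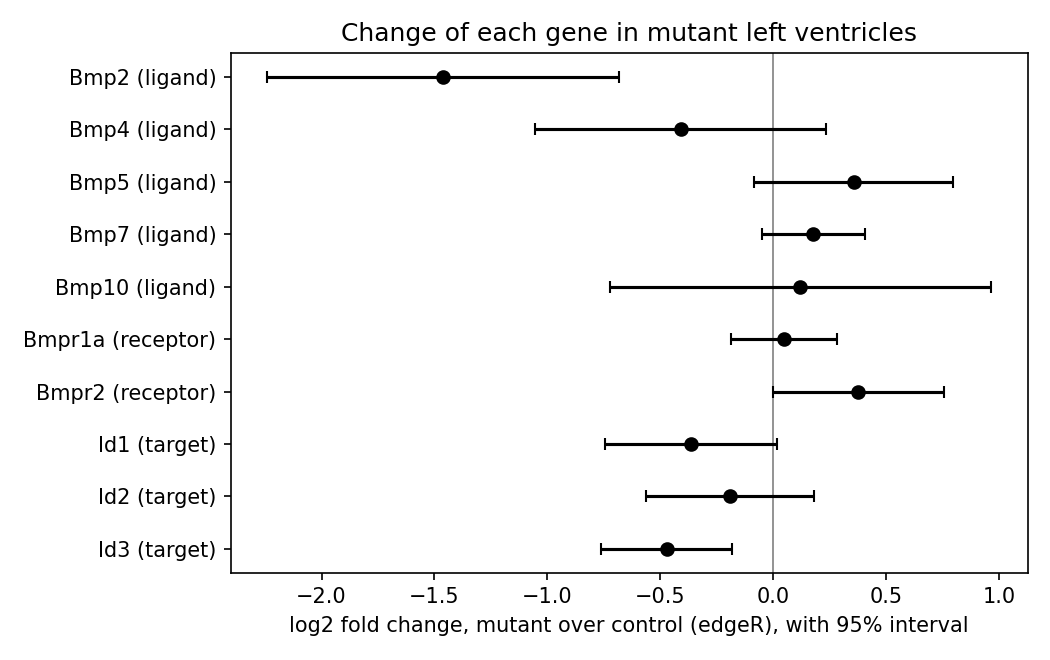
Log2 fold change of each gene, libraries labelled mutant over controls, from the edgeR quasi-likelihood fit. Points give the estimate and bars the 95% interval; only the intervals of Bmp2 (-2.24 to -0.68) and Id3 (-0.76 to -0.18) lie wholly on one side of 0.

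Within the controls, replicate 4 had the smallest value of Bmp2, Bmp4, Id1, Id2 and Id3, 5 of the 10 genes, and the largest of none. Control replicate 1 was the lowest for Bmp5, Bmp7 and Bmp10 and control replicate 5 for Bmpr1a and Bmpr2. Markers of the atrioventricular canal were low in the same libraries as Bmp2: the summed level of Tbx2, Tbx3, Rspo3 and Cacna1g was 17.7 and 18.0 CPM in mutant replicates 1 and 2, against 55.4, 60.7, 52.5, 30.6 and 41.6 CPM in control replicates 1 to 5. The libraries labelled mutant were the lowest and control replicate 4 the next lowest, the same 3 libraries as for Bmp2. This order was not particular to these markers, since outflow tract and some atrial markers, given below, had it too. All 4 markers were detected in every library, and both libraries labelled mutant were below all controls for 4 of 4, against 10.4% of all genes. Tbx2 is also among the further target genes described later. Rspo3 and Cacna1g, named after their values were seen, passed the edgeR quasi-likelihood test as lower, against 0.899% of all genes that did so. The edgeR quasi-likelihood values were a log2 fold change of -1.38 for Rspo3 (adjusted p 0.0202) and of -1.41 for Cacna1g (adjusted p 0.0427).
The atrioventricular canal list and the marker lists that follow were chosen with earlier results of these data known. Shares over all genes are therefore not a neutral background for their counts. Cushion mesenchyme markers were also lower, with a summed level of 1305 and 1289 CPM in the libraries labelled mutant, against 2195 to 3749 CPM in the controls. Of 9 cushion markers 7 passed as lower, beside the same 0.899% of all genes. There control replicate 4, at 2920 CPM, was the second highest control. Summed outflow tract markers were at 33.1 to 43.3 CPM in the libraries labelled mutant, against 63.1 to 73.4 CPM in the controls, and 1 of 5 tested passed as lower. There control replicate 4, at 63.1 CPM, was the lowest control, as for the atrioventricular canal markers. Summed macrophage markers were at 126 to 186 CPM, against 194 to 274 CPM, and 3 of 8 passed as lower. For these the lowest control was replicate 5. The summed epicardial markers (278 to 391 CPM, against 381 to 550 CPM) and atrial markers (4332 to 4479 CPM, against 3694 to 5501 CPM) overlapped between the groups. Single markers of both lists did not: 3 of 6 atrial markers, Sln, Stard10 and Nr2f1, passed as lower, while Myl4 and Nppa, which make up nearly all of the atrial sum, overlapped. Control replicate 4 was the lowest control for Sln, Stard10 and Nr2f1, at 3.46, 14.0 and 4.16 CPM, with both libraries labelled mutant below it. Of 8 epicardial markers 1, Krt19, passed as lower, and 4 had both libraries labelled mutant below all controls, against 10.4% of all genes. Cardiomyocyte markers went mostly the other way, with a summed level of 28540 to 32455 CPM in the libraries labelled mutant, against 24547 to 30320 CPM in the controls. Tnnt2, Myh7, Actn2 and Myl3 were above all controls in both libraries labelled mutant and Myl2 was below. Of the 14691 genes tested, 1430 lay above all controls in both and 1534 below. None of the 8 cardiomyocyte markers was called by edgeR at an adjusted p of 0.05. At an unadjusted p under 0.05 there were 5 higher and 1 lower, against 8.09% higher and 9.52% lower over all genes. Every marker of these lists was above 0 in each library. In bulk tissue, fewer cells of a type and less RNA per cell cannot be told apart, and the part of these markers in the Bmp2 and Id3 values was not tested.

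**Figure D3:**
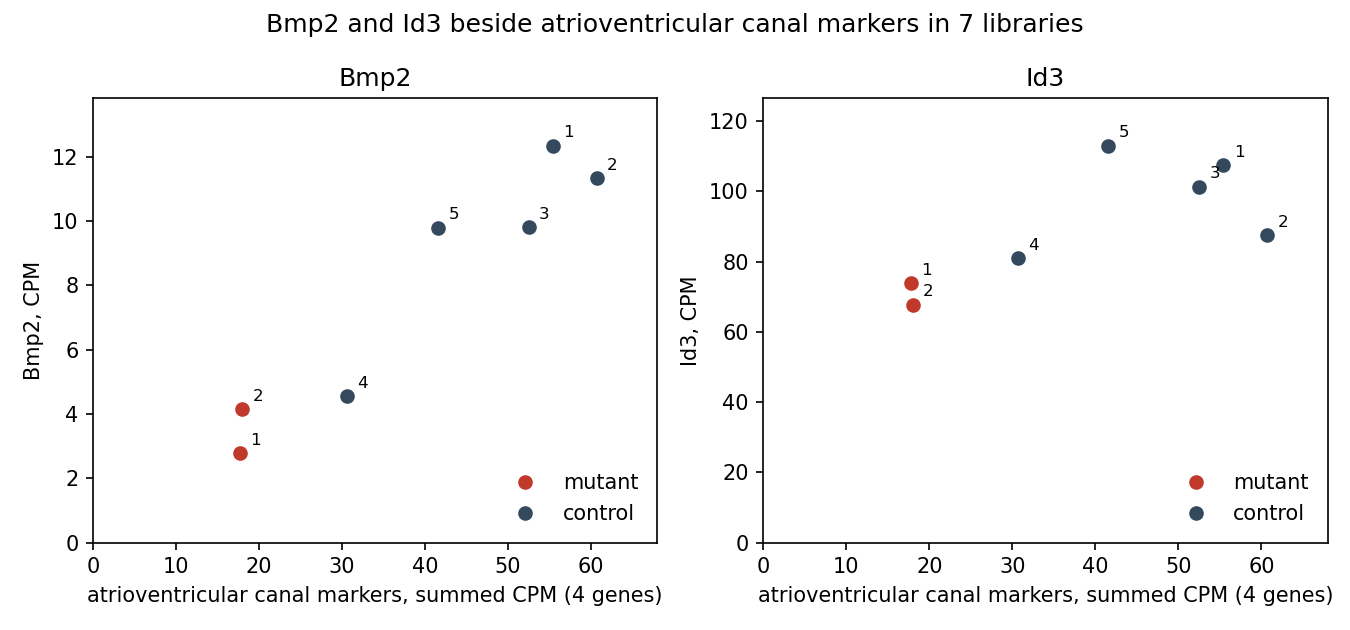
CPM of Bmp2 (left) and Id3 (right) against the summed CPM of 4 atrioventricular canal markers in the 7 libraries, with replicate numbers beside the points. For both genes the libraries labelled mutant (red) lie at the lower left, and control replicate 4 is the control nearest to them.

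Levels were compared between genes as CPM per kb of exon. In the libraries labelled mutant the order was Id3 (39.5 ± 2.43), Id2 (34.9 ± 1.504), Bmpr1a (30.6 ± 1.95), Bmp7 (26.3 ± 2.48), Id1 (21.6 ± 4.99), Bmp4 (8.09 ± 2.33), Bmp5 (4.65 ± 0.0811), Bmp10 (4.63 ± 2.56), Bmpr2 (1.56 ± 0.579) and Bmp2 (0.9746 ± 0.275 CPM per kb, SD, n = 2). In the controls it was Id3 (54.8 ± 7.53), Id2 (39.8 ± 7.67), Bmpr1a (29.7 ± 2.87), Id1 (27.8 ± 4.33), Bmp7 (23.3 ± 2.13), Bmp4 (10.7 ± 3.36), Bmp10 (4.26 ± 1.63), Bmp5 (3.63 ± 0.874), Bmp2 (2.69 ± 0.846) and Bmpr2 (1.21 ± 0.0931 CPM per kb, SD, n = 5). Among neighbours in the control order the ranges were apart only between Bmp7 and Bmp4 and between Bmp4 and Bmp10. The Id genes, Bmpr1a and Bmp7 thus formed an abundant set, and Bmp2 was the last in the libraries labelled mutant and second to last in the controls. Bmpr2 has 17983 exon bases in the annotation, more than any other of the 10, and its level per length depends on how much of that length the ventricle uses.

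**Figure D4:**
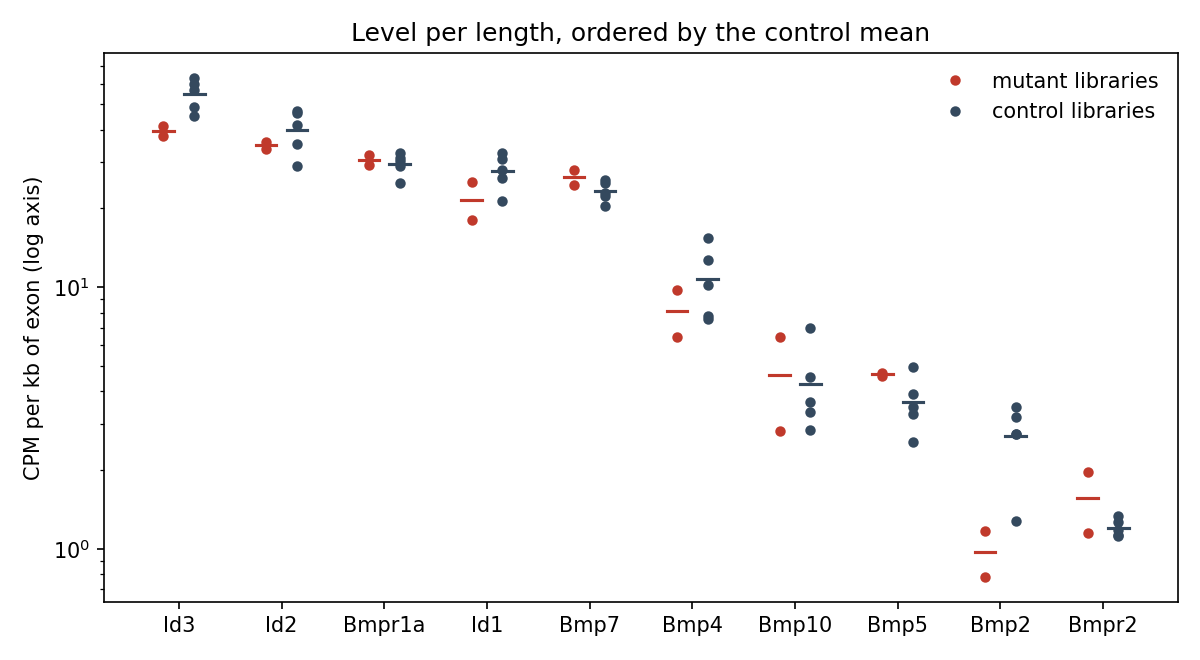
CPM per kb of exon for each gene on a log axis, ordered by the control mean, with libraries labelled mutant (red) left of controls (dark blue). Points are libraries and lines are means; Id3 is the highest gene in both groups, and Bmp2 has the lowest mean in the libraries labelled mutant.

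A further 52 genes of the pathway were examined, of which 43 passed the filter on low counts. The 9 others, Bmp8a, Bmp8b, Gdf5 and Gdf7 among them, had at most 14 counts in any library. The pathway list, too, was chosen with earlier results of these data known, so shares over all genes are not a neutral background. None of the 43 was called by edgeR at an adjusted p of 0.05. At an unadjusted p under 0.05 there were 8, or 18.6%, against 17.6% of all genes. Of these, 7 were lower and 1 higher, against 9.52% lower and 8.09% higher over all genes. The DESeq2 Wald test called 2, both lower, against 5.35% of all genes, and limma-voom called 0, against 0.81%. Both libraries labelled mutant were below all controls for 7 of 43 and above for 1. Over all 14691 genes tested, 10.4% were below and 1430 genes were above. Both directions together made up 18.6% of the 43, against 20.2% of all genes. The median log2 fold change of the 43 was -0.12.

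The further target genes had the lowest median of any role. All 5, Id4, Msx1, Msx2, Tbx2 and Atoh8, had negative log2 fold changes, with a median of -0.87, beside 7552 negative values among the 14691 genes tested. An unadjusted p under 0.05 (edgeR quasi-likelihood) was met by 4 of 5, against 9.52% of all genes as lower. These targets were listed with earlier results of these data known, which limits both comparisons. Tbx2, a T-box repressor that BMP2 is known to induce in the atrioventricular canal, was at 7.28 and 5.12 CPM in mutant replicates 1 and 2, against 13.7, 14.5, 14.6, 9.05 and 11.4 CPM in control replicates 1 to 5. Both libraries labelled mutant were below all controls, and control replicate 4 was the lowest control. Its log2 fold change was -1.03 (SE 0.22) with an adjusted p of 0.052 by the edgeR quasi-likelihood test; it was 0.000593 by the DESeq2 Wald test and 0.0168 without control replicate 4, within a range of 0.000593 to 0.408 over the 20 alternatives. Msx1, a homeobox gene of cushion mesenchyme named after its values were seen, was at 2.23 and 2.71 CPM in the libraries labelled mutant, against 7.10, 3.80, 6.26, 3.36 and 6.43 CPM in control replicates 1 to 5. It was the other gene called by DESeq2, with an adjusted p of 0.0186 by its Wald test and of 0.111 by the edgeR quasi-likelihood test. The authors' deposited table lists Tbx2 at a log2 fold change of -1.04 and Msx1 at -1.13, and no other of the 52 genes. Atoh8, a basic helix-loop-helix gene, was at 9.51 and 10.4 CPM, against 10.2 to 15.2 CPM in the controls (log2 fold change -0.43, SE 0.16; adjusted p 0.212, edgeR quasi-likelihood).

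Genes for the proteins that carry the signal inside the cell overlapped between the groups. Of the 4 SMAD genes none had an unadjusted p under 0.05, and their median log2 fold change was -0.0030. Smad4, the common partner, was at 74.7 and 85.1 CPM in the libraries labelled mutant, against 66.8 to 81.2 CPM in the controls (log2 fold change 0.11, SE 0.10). Smad5, a receptor-activated SMAD, was at 99.4 and 114 CPM, against 91.0 to 104 CPM (0.13, SE 0.09). Of 7 inhibitors in the membrane or the cell, 0 had an unadjusted p under 0.05. Bambi, a decoy receptor, was at 124 and 114 CPM, against 104 to 147 CPM (log2 fold change -0.08, SE 0.13), and Ski, a SMAD co-repressor, at 93.6 and 118 CPM, against 80.0 to 111 CPM (0.21, SE 0.13). By the edgeR quasi-likelihood test, Smad4, Smad5, Bambi and Ski had adjusted p of 0.440 to 0.784.

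Among the other receptors, Acvr1, a type I receptor, was at 35.5 and 45.4 CPM in the libraries labelled mutant, against 34.5 to 44.6 CPM in the controls (log2 fold change 0.08, SE 0.12). Acvr2a, a type II receptor shared with activins, was at 28.3 and 41.2 CPM, against 25.0 to 34.1 CPM (0.27, SE 0.15). The 1 gene of the 43 with both libraries labelled mutant above all controls was Acvr2b, another type II receptor, named after its values were seen. It was at 6.09 and 8.09 CPM, against 4.04 to 5.50 CPM (log2 fold change 0.51, SE 0.18; adjusted p 0.178, edgeR quasi-likelihood). Of the co-receptor genes, Eng, of endothelium, was at a log2 fold change of 0.19 (SE 0.18), and the betaglycan gene Tgfbr3 was at 0.55 (SE 0.25). Tgfbr3 was at 77.1 CPM in mutant replicate 2 and 42.0 CPM in mutant replicate 1, against 32.3 to 56.5 CPM in the controls, and its log2 fold change was 0.06 without mutant replicate 2. Among further ligands the log2 fold change was 0.20 for Gdf6 (SE 0.29) and 0.07 for Bmp6 (SE 0.16).

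Of 9 extracellular antagonists tested, 8 had negative log2 fold changes, with a median of -0.46, beside 7552 negative values among the 14691 genes tested. At an unadjusted p under 0.05 (edgeR quasi-likelihood) 3 were lower, against the same 9.52%. Fstl1, which encodes a follistatin-like protein, and Twsg1, which encodes a chordin-binding protein, were the most abundant per kb. Their log2 fold changes were -0.08 (SE 0.11) for Fstl1 and 0.14 (SE 0.09) for Twsg1. Chrdl1, a chordin-like antagonist named after its values were seen, was at 0.892 and 0.962 CPM in the libraries labelled mutant, against 1.54 to 2.28 CPM in the controls (log2 fold change -1.03, SE 0.28; adjusted p 0.097, edgeR quasi-likelihood). At an adjusted p under 0.1, which 3.99% of all genes met, it was called together with Bmp2 and Tbx2. The 3 genes of E-protein partners of the ID proteins were not called. Among them the log2 fold change was -0.08 for Tcf3 (SE 0.08; adjusted p 0.665, edgeR quasi-likelihood) and -0.14 for Tcf12 (SE 0.08; adjusted p 0.380).

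**Figure D5:**
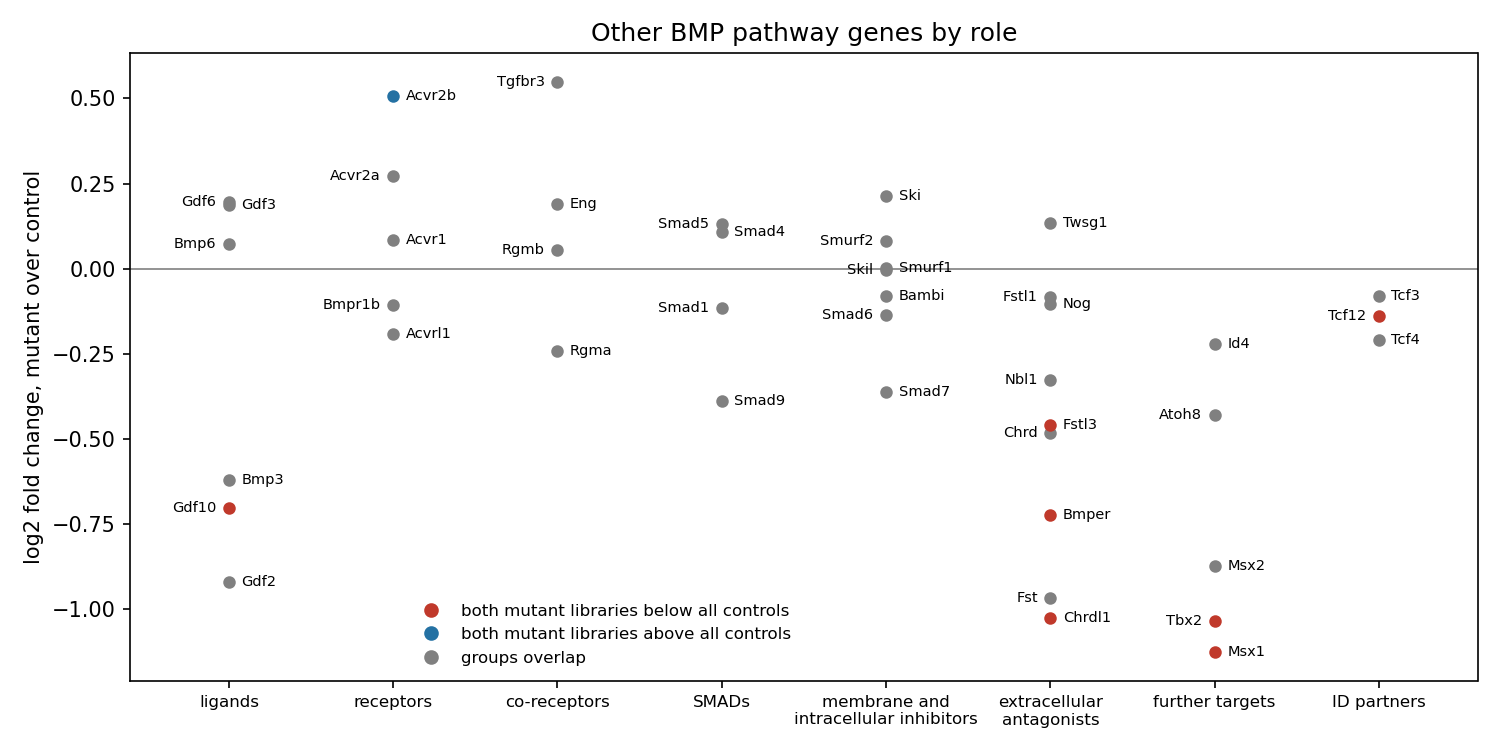
Log2 fold change, libraries labelled mutant over controls, of the 43 tested pathway genes by role. Red points are genes with both libraries labelled mutant below all controls, the blue point is the gene with both above, and grey points are genes whose groups overlap; Msx1 and Tbx2 lie lowest among the further targets.

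For each of the 10 genes the tested gene of at least 10 CPM with the most similar pattern was found by Pearson's r of log2 CPM over the 7 libraries, among 9158 or 9159 genes, a search in which high values arise readily from so few points. It was Apcdd1, a WNT inhibitor, for Id3 (r = 0.992) and Athl1 for Bmp2 (r = 0.989). Apcdd1 was at 16.0 and 14.7 CPM in mutant replicates 1 and 2, against 25.0, 18.8, 24.3, 18.7 and 27.1 CPM in control replicates 1 to 5. For the others it was Gnb5 for Bmp4, Clpb for Bmp5, Arid3a for Bmp7, Wipi2 for Bmp10, Zdhhc17 for Bmpr1a, Prune for Bmpr2, Skap2 for Id1 and Spats2l for Id2, with r between 0.971 and 0.991.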

How the data were processed

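Poly(A) RNA was measured in 7 left ventricle libraries, grouped by sample title. Per the labels' protocols the library kit does not mark strand and reads were single-end. The authors deposited raw read counts, whole numbers for each gene symbol. The submitters' processing notes name mm10, limma 3.30.13, edgeR 3.16.5, R 3.3.2, featureCounts and TopHat2 2.1.1 without their roles; the sources used here do not give the annotation. The authors' deposited table of significant genes holds a log2 fold change, a false discovery rate and a p-value. Its header names neither the log base nor the direction, which were taken from closeness to the values computed here.

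The count table was analysed with edgeR 4.0.16 in R 4.3.3. filterByExpr (minimum count 10, minimum total 15) kept 14691 of 23337 genes, TMM factors ran from 0.988 to 1.01, and glmQLFit (robust) with glmQLFTest compared the genotypes in all 7 libraries, adjusted by Benjamini-Hochberg at 0.05. The common biological coefficient of variation was 0.128. SE is the fold change over the root of F, and 95% intervals rest on 5 residual plus 5.50 (median) prior degrees of freedom. No pair of replicates was a copy (chi-square of their counts 9.99 to 31.9 for each degree of freedom). The depth of 20268208 to 24440806 counts limits genes below 1 CPM most. The fit was checked on simulated data with known changes. DESeq2 1.42.0 and limma 3.58.1 served as alternatives. Exon lengths and positions are from GENCODE vM21 (GRCm38), and levels between genes are CPM over exon length. Plots used matplotlib 3.10.9 under Python 3.11.15.

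The genes and lists were chosen with earlier results of these data known. Named are the 10 genes, any other pathway gene that passed, the 2 of highest CPM per kb in each role and the gene most like each of the 10; Msx1, Acvr2b, Chrdl1 and the single cell type markers were named after their values were seen.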

Additional observations from a re-analysis of the deposited data

Results flagged for a closer look

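Among 29 genes examined for a control far from the other 4, Gdf6, a BMP ligand, was the only 1 picked out. It was at 6.83 CPM in control replicate 5, against 13.4 CPM in the nearest other control, a gap of 0.799 of the control range where 0.71 is the 95% limit for 5 samples. Such a gap is expected in about 1 of 20 groups by chance. Gdf6 was at 18.2 and 10.7 CPM in mutant replicates 1 and 2, and its log2 fold change was 0.20 (SE 0.29).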

How the results depend on the processing

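Of 20 alternatives, 2 were chosen after seeing the data, namely leaving out control replicate 5 and mutant replicate 2 together, and the 4 libraries numbered 1 and 2 without a block. Among the 10 genes, 7 kept their direction in all 20 and Bmp10, Bmpr1a and Bmpr2 did not; 4 (Bmp2, Bmp5, Bmpr2 and Id3) passed in some, Bmpr2 only with a single library labelled mutant, which is assumed to vary like the controls.

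The number of genes called, 200, was 786 by DESeq2, 119 by limma-voom, 586 at a threshold of 0.1, 60 with Xist as a term, 66 among libraries with Xist over 10 CPM, 52 without control replicate 5 and mutant replicate 2, and 12 to 275 without 1 library. Of the 10 BMP genes, 0 at first, 2 were called by DESeq2 and 1 at 0.1, and 0 to 1 without 1 library (Bmp2 without control replicate 4, Bmpr2 without mutant replicate 1). Of the other pathway genes, also 0, 2 were called by DESeq2, 2 at 0.1, 1 with no filter on low counts (Tbx2) and 0 to 1 without 1 library (Tbx2 without control replicate 4).

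With the replicate block, which used the 4 libraries numbered 1 and 2, 632 genes were called, among them 2 of the 10 (Bmp2 lower, Bmp5 higher) and 2 other pathway genes (Tbx2 lower, Tgfbr3 higher). The same 4 libraries unblocked gave 184 genes, among them 1 of the 10 and 1 other. Deviations of same-numbered libraries correlated at 0.0775 and 0.0117 across genes. With only 2 libraries labelled mutant, their deviations mirror each other, so these values cannot show whether same-numbered libraries share a litter or batch.

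Reversed log2 fold changes were all within 0.6 of 0, and their cause was not tested. With Xist as a term, or only libraries with Xist over 10 CPM, Bmp10 was at -0.0072 and -0.0029, and Bambi at 0.056 and 0.060. Without control replicate 5 and mutant replicate 2, Bmp10 was at -0.34, Bmpr1a -0.065, Bmpr2 -0.083, Bmp6 -0.0076 and Acvr1 -0.034. With the 4 libraries numbered 1 and 2, Bmp6 was at -0.13 with the block and without. Without 1 library the ranges were -0.59 to 0.59 for Bmp10, -0.0094 to 0.11 for Bmpr1a, -0.055 to 0.71 for Bmpr2, -0.23 to 0.54 for Gdf6, -0.095 to 0.25 for Acvr1, -0.016 to 0.52 for Acvr2a, -0.0019 to 0.37 for Eng and -0.21 to 0.048 for Fstl1.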

Other observations

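Of 6 markers of trabecular myocardium, Nppb (log2 fold change -1.22, SE 0.11, adjusted p 0.00208) and Gja5 (-1.77, SE 0.34, adjusted p 0.0471) were called lower by the edgeR quasi-likelihood test, against 0.899% of all genes. Nppa and Irx3 overlapped between the groups. Irx3 had its highest control value in control replicate 5, as Bmp10 did, at 18.1 CPM. The compact markers Hey2, Mycn and Tbx20 overlapped between the groups, Mycn at 62.5 and 58.3 CPM in the libraries labelled mutant, against 58.2 to 62.1 CPM in the controls.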
